A study of Mus musculus with 40 samples.

Results

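Both muscles of the same mouse were set side by side, gene by gene, to see which transcripts follow the animal and which follow the muscle alone. All 40 arrays were used as 20 pairs, since each title gives a mouse number, and 40 of the 40 arrays of the series were members. Total RNA of the quadriceps and of the gastrocnemius, both limb muscles, was hybridised to mouse genome arrays from 10 male mice on a low fat diet (LFD) and 10 on a high fat diet (HFD). The mice, C57BL/6J in the methods and C56BL/6J in the labels, were moved to a low fat run-in diet at an age of 9 weeks, kept on it for 3 weeks, and then fed LFD or HFD for 8 weeks until an age of 20 weeks. All mice were fasted and anesthetized before they were killed. The gastrocnemius was not divided into parts, the extraction protocol of the labels names only the quadriceps, and the sources used here give no time of dissection, day of RNA extraction or day of hybridization for a mouse. What belongs to the animal and what belongs to its handling therefore cannot be told apart.

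The tissue carried its defining transcripts on every array. Skeletal actin, *Acta1*, ranged from 25308.8 to 30599 in signal intensity, while *Myog*, a regulator of muscle formation that adult fibers hardly use, stayed between 5.4 and 9.8, near the array medians of 8.8 to 9.4. No 2 arrays were identical, and correlations of log2 signals between arrays lay between 0.985 and 0.997. In these whole muscles, fewer cells of a type and less RNA per cell cannot be told apart.

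Muscles of one animal share their blood, and with it the hormones and nutrients that reach them, and they share the hour and manner of death. Glucocorticoids, secreted by the adrenal cortex in stress and fasting, enter the nucleus of muscle cells with their receptor and switch on a set of transcription factors and metabolic genes. Growth hormone acts through STAT5 and induces *Cish*, a feedback inhibitor of the same pathway. Heat shock proteins answer misfolded protein, immediate early genes answer stimuli of many kinds within minutes, and the circadian clock runs in every fiber. Fiber composition, in contrast, depends on nerve supply and on the piece of muscle sampled, and blood left in a piece can bring its own cells.

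A residual, the log2 signal minus the mean of the 10 arrays of the same muscle and diet, was taken for each gene and array, and for 6479 genes with a mean signal over 20 the quadriceps residual was correlated with the gastrocnemius residual over mice. The median Pearson r was 0.166 over all 20 mice, with 5th and 95th percentiles of -0.230 and 0.564. Of the tested genes, 99 (1.53%) had a positive r at a false discovery rate (FDR) under 0.05 by a permutation test that exchanged mice within a diet, and 0 (0%) had a negative r. At an unadjusted p under 0.05, 731 were positive and 22 were negative, and the moderated F test of limma, which asks about shared deviation only, called 169. The weakest of the 99 had an r of 0.643. All 99 had a positive r in each diet, which the choice of genes over both diets favors, with medians of 0.849 in LFD mice and 0.806 in HFD mice. Without the 2 mice farthest from the median of the quadriceps residual, all 99 kept an unadjusted permutation p under 0.05, with a lowest r of 0.521. This second test exchanged the remaining mice over both diets and did not center their residuals again. The call over all mice, with exchange within a diet, reached only to a permutation p of 0.00076. Many of the 99 no longer met that limit without the 2 mice, such as *Tacc2* (permutation p 0.0265), *Sgk1* (0.00793) and *Csrp3* (0.00172). For *Ppp1r27* and *Ercc1* among the 99, the residuals fell into separate sets of mice, so their r over all mice is not used further. The called genes had a wider spread than the tested genes, with a median residual SD of 0.344 against 0.185 in the quadriceps and 0.343 against 0.183 in the gastrocnemius. Of the 100 genes most variable in both muscles, 18 were called and the median r was 0.216.

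**Figure D1:**
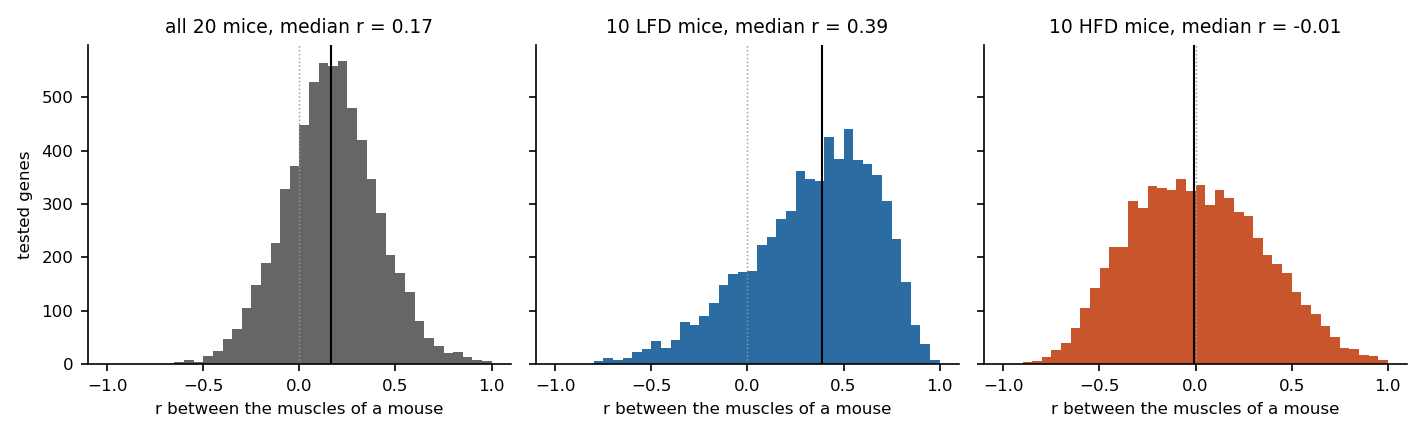
Number of tested genes (y axis) by the r between both muscles of a mouse (x axis, bins of 0.05) in all 20 mice, in the 10 LFD mice and in the 10 HFD mice. The black line marks the median, 0.17 over all mice, 0.39 in LFD mice and -0.01 in HFD mice.

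The called genes with the largest shared SD, the square root of the covariance of both residuals in log2 units, included *Arrdc2*, *Cish*, *Egr1*, *Hspa1b*, *Gadd45g*, *Depp1*, *Slc25a25*, *Per1*, *Cebpd*, *Klf2* and *Hspa1a*. The shared SD of these 11 ran from 0.79 to 1.43, while it was 0.312 at the median of all 99. Those chosen for the highest r among the 99 were *Arrdc2*, *Cish*, *Cebpd*, *Gadd45g* and *Depp1*. Signals are given below on the linear scale as the lowest, the median and the highest of 10 mice, and they are not compared between genes.

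*Arrdc2* encodes an arrestin-domain protein, a family of adaptors for the removal of membrane proteins. In the quadriceps its signal was 21.2, 57.05 and 324.2 in LFD mice and 12.8, 91.4 and 356.0 in HFD mice. In the gastrocnemius it was 18, 66.75 and 389.6 in LFD mice and 14, 105.95 and 389.5 in HFD mice. The diets overlapped across nearly the whole range, and the highest mouse lay 27.8-fold above the lowest in each muscle. The same mice stood at the ends: LFD mouse 147 had 324.2 and 389.6 in its quadriceps and gastrocnemius, HFD mouse 146 had 356.0 and 389.5, LFD mouse 142 had 21.2 and 18, and HFD mouse 152 had 12.8 and 14. The r between the muscles was 0.978 (95% CI 0.943 to 0.992, Spearman's rho 0.952, FDR 0.00209, n = 20 mice, permutation test), and 18 of 20 mice lay on the same side of their group means in both muscles. It was 0.994 in LFD mice and 0.967 in HFD mice, with an FDR of 0.0108 and 0.0324 by the permutation test in each diet.

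Genes that fasting or glucocorticoids induce made up a large part of the remaining leaders. *Cebpd*, a transcription factor of this response, had an r of 0.963 (95% CI 0.903 to 0.986) and was the one gene of the 11 for which all 20 mice lay on the same side in both muscles. Its signal was 138.6, 186.6 and 702.6 in the LFD quadriceps, 139.4, 184.5 and 527.6 in the LFD gastrocnemius, 123.4, 300.5 and 565.3 in the HFD quadriceps and 107.5, 272.4 and 560.6 in the HFD gastrocnemius. Mice 160 and 146 held the highest quadriceps values of their diets, and mouse 152 the lowest value of HFD mice in both muscles. *Gadd45g*, a stress-induced partner of MAP kinase kinases, had an r of 0.959 (95% CI 0.895 to 0.985). It spanned 238.7 to 1355.4 in the LFD quadriceps (median 451.9), 313.8 to 1513.8 in the LFD gastrocnemius (573.7), 144.0 to 1157.7 in the HFD quadriceps (751.25) and 177.9 to 1465.4 in the HFD gastrocnemius (808.6). Mouse 153 was lowest and mouse 147 highest in both muscles on LFD, and mouse 152 was lowest in both on HFD.

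*Depp1*, a target of FOXO factors, had an r of 0.951 (95% CI 0.874 to 0.981). Its signal was 26.7 to 176.8 in the LFD quadriceps (median 39.4), 21.0 to 192.1 in the LFD gastrocnemius (39.2), 29.6 to 143.9 in the HFD quadriceps (58.15) and 28.0 to 158.1 in the HFD gastrocnemius (58.0). As for *Arrdc2*, mouse 147 was highest on LFD and mouse 146 on HFD, each in both muscles. *Slc25a25*, a mitochondrial carrier of ATP-Mg and phosphate, had an r of 0.868 (95% CI 0.682 to 0.948). It was expressed closer to the filter, at 8.5 to 37.6 in the LFD quadriceps (median 23.95), 11.6 to 58.6 in the LFD gastrocnemius (24.05), 8.9 to 70.8 in the HFD quadriceps (22.05) and 13.5 to 102.9 in the HFD gastrocnemius (25.6), so its fold range depends on the background.

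*Per1*, which belongs to the clock and is also induced directly by glucocorticoids, had an r of 0.886 (95% CI 0.723 to 0.956), 0.966 in LFD mice and 0.772 in HFD mice. Its signal was 20.4, 52.7 and 158.1 in the LFD quadriceps, 19.2, 57.2 and 138.9 in the LFD gastrocnemius, 38.2, 58.05 and 143.7 in the HFD quadriceps and 29.5, 74.75 and 152.8 in the HFD gastrocnemius. Mouse 160 was the highest and mouse 142 the lowest LFD mouse in both muscles, and mouse 150 the highest HFD mouse in both. *Klf2*, a transcription factor of the endothelium under flow, had an r of 0.859 (95% CI 0.663 to 0.944). Its signal was 54.0, 197.7 and 262.2 in the LFD quadriceps, 59.7, 163.85 and 276.4 in the LFD gastrocnemius, 53.0, 179.9 and 329.3 in the HFD quadriceps and 55.5, 144.1 and 422.6 in the HFD gastrocnemius. On LFD mouse 142 was again lowest and mouse 160 highest in both muscles.

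*Cish* followed other mice. Its signal was 17.7, 48.4 and 212.3 in the LFD quadriceps, 16.3, 39.9 and 144.6 in the LFD gastrocnemius, 18.3, 101.6 and 289.2 in the HFD quadriceps and 8.7, 77.25 and 213.6 in the HFD gastrocnemius. LFD mouse 148 and HFD mouse 149 were highest in both muscles, and HFD mouse 151 was lowest in both. LFD mouse 142, at the bottom for *Arrdc2*, was second on LFD for *Cish* with 145.8 and 137.6. The r was 0.975 (95% CI 0.935 to 0.991, rho 0.976, FDR 0.00209, permutation test), 0.970 in LFD mice and 0.989 in HFD mice.

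*Egr1*, the immediate early transcription factor, had an r of 0.803 (95% CI 0.549 to 0.921, FDR 0.0110, permutation test) and a rho of 0.699, whose FDR was 0.0805 by the permutation test of ranks, so it was called by Pearson's r alone. Its signal was 37.2, 104.5 and 541.5 in the LFD quadriceps, 42.4, 97.9 and 483.0 in the LFD gastrocnemius, 20.0, 94.95 and 405.2 in the HFD quadriceps and 45.9, 102.8 and 359.5 in the HFD gastrocnemius. LFD mice 153 and 154 and HFD mice 143, 144 and 152 were high in both muscles, and 15 of 20 mice lay on the same side in both.

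The inducible HSP70 genes *Hspa1b* and *Hspa1a* had an r of 0.830 (95% CI 0.604 to 0.933, FDR 0.00551) and 0.818 (95% CI 0.579 to 0.928, FDR 0.0104) by the permutation test. They are neighboring, near-identical copies whose probes may share transcripts, and the mouse means of both correlated with an r of 0.984, so they are best read as 1 measurement. *Hspa1b* ranged over 51.5, 137.0 and 975.2 in the LFD quadriceps, 46.1, 118.6 and 322.4 in the LFD gastrocnemius, 63.1, 253.9 and 592.5 in the HFD quadriceps and 113.8, 163.75 and 297.9 in the HFD gastrocnemius. *Hspa1a* ranged over 13.6, 30.85 and 184.3, then 13.5, 31.6 and 65.4, then 15.9, 52.9 and 105.2, and then 27.1, 39.35 and 61.8 in the same order of groups. Mice 155 and 156 stood far above the other LFD mice in the quadriceps with 975.2 and 969.8 for *Hspa1b*, and in the gastrocnemius they were the highest LFD mice too with 322.4 and 235.1. The spread was wider in the quadriceps, with a residual SD of 1.3 against 0.784 for *Hspa1b*.

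**Figure D2:**
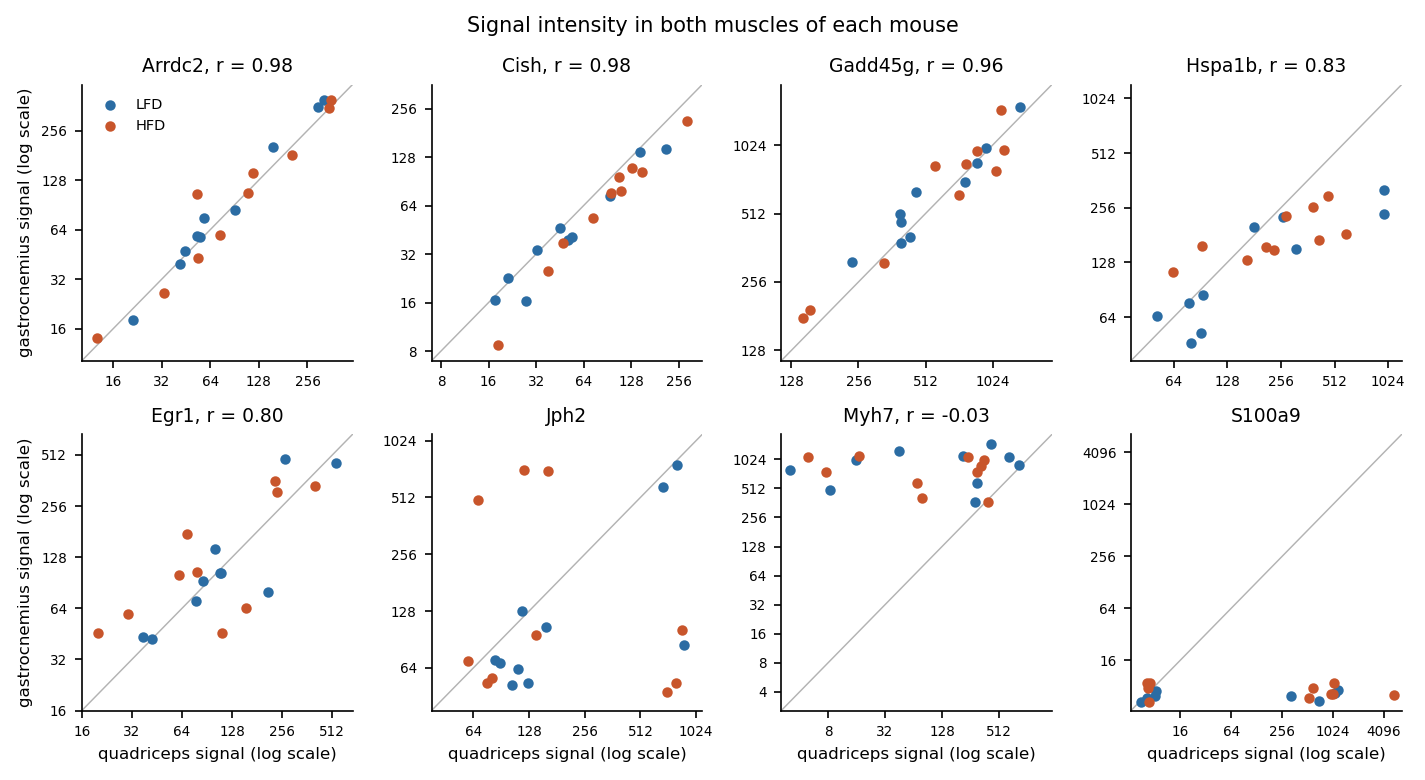
Signal intensity in the quadriceps (x axis) and in the gastrocnemius (y axis) of each mouse, both on a log scale, for 8 genes, with 1 point per mouse (LFD blue, HFD orange) and the line of equal signal in gray. *Arrdc2*, *Cish* and *Gadd45g* run along the line, *Hspa1b* and *Egr1* follow it with more scatter, and *Jph2*, *Myh7* and *S100a9* leave it, with no r given where the residuals fell into separate sets of mice.

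Promoters of shared genes were read because members of different groups moved together in both muscles, and windows of 300 bases, from 250 before to 50 after the start, were at hand in RefSeq (GRCm38.p6) for 79 of the 99 genes and for 5201 of the 6479 tested genes. Lines below hold the first 280 bases of the window of the gene with the largest shared SD, of 2 further genes like it, and of the leading gene of the *Cish* and heat shock groups, each 5′ to 3′ on the strand of the gene, with motif matches in capitals.
*Arrdc2*, chr8:70839691-70839970, minus strand: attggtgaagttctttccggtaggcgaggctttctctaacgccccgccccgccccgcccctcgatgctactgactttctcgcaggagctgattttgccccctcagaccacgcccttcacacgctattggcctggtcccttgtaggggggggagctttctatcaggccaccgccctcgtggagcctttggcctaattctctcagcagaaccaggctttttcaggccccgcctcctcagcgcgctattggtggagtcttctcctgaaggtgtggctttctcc
*Gadd45g*, chr13:51846425-51846704, plus strand: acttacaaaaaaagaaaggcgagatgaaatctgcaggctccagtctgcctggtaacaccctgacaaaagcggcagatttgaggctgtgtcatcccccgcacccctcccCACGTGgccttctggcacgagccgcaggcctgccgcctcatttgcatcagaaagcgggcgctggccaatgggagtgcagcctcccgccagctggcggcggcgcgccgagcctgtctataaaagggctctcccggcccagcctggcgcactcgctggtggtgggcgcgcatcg
*Per1*, chr11:69098699-69098978, plus strand: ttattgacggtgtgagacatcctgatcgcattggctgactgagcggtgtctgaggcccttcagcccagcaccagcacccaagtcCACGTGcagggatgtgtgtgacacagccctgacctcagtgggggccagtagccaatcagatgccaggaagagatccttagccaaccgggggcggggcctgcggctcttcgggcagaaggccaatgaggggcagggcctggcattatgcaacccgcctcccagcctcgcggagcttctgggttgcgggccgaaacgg
*Cish*, chr9:107296409-107296688, plus strand: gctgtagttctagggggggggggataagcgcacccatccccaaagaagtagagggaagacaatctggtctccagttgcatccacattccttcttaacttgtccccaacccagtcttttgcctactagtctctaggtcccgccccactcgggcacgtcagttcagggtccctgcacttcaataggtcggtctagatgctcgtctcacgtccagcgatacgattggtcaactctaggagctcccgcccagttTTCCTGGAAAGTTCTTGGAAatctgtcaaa
*Hspa1b*, chr17:34959209-34959488, minus strand: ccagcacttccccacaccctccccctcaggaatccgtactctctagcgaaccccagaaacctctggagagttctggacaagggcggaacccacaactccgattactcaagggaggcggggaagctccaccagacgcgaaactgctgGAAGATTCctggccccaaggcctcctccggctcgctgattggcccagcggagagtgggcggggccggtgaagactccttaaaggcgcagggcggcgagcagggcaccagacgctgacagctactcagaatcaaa
The motifs searched on both strands were CACGTG (E-box), TTATGTAA (D-box), AGAACA (part of a site for the glucocorticoid receptor), GAANNTTC (unit of a heat shock element) and TTCNNNGAA (STAT palindrome, added after the data were seen). *Gadd45g* and *Per1* hold an E-box at -142 and -166 from the start, *Hspa1b* a heat shock unit at -104, and *Cish* a pair of STAT palindromes at 1 and 12 with a heat shock unit at 7 that overlaps both, while none of these letters occur in the window of *Arrdc2*. Windows with CACGTG were 17 of 110 for shared genes (15.5%) and 10.5% of the 6686 windows of tested genes. For GAANNTTC it was 12 windows (10.9%) against 5.85%, for AGAACA 9 (8.18%) against 12.4%, for TTCNNNGAA 6 (5.45%) against 6.73%, and for TTATGTAA 1 (0.909%, *Jdp2*) against 0.538%. These are counts of letters in a short window, and nothing follows from them about binding.

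The shared genes did not all follow the same mice. With the mean residual of both muscles taken for each mouse, 23 other genes of the 99 had an r over 0.7 with *Arrdc2*, 0 with *Egr1* and 9 with *Hspa1b* across 20 mice, while *Arrdc2* and *Cish* themselves had an r of 0.116. These are descriptions over mice of genes chosen with their values in view. Most like *Arrdc2* were *Per1* (0.924), *Cebpd* (0.919), *Nfkbia*, the inhibitor of NF-kappaB (0.908), *Gpihbp1*, which holds lipoprotein lipase on capillaries (0.905), and *Rhob*, a small GTPase (0.895). *Gadd45b*, a relative of *Gadd45g*, ran the opposite way (-0.723). Its own muscles followed each other, as it is one of the 99. *Fkbp5*, a target of the glucocorticoid receptor that was also among the 99, had an r of -0.195 with *Arrdc2*.

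With *Cish* went *Cited2*, a transcriptional coregulator (0.744). With *Hspa1b* went, after its copy *Hspa1a*, *Serpinh1*, the collagen chaperone (0.842), *Slc38a2*, an amino acid transporter (0.784), *Hsph1*, the HSP110 cochaperone (0.773), and *Stip1*, which links HSP70 and HSP90 (0.758). Genes that ran against *Hspa1b* were *Sh3rf2* (-0.862), the phosphatase *Dusp26* (-0.783), the fasting-induced factor *Klf15* (-0.743) and the sialidase *Neu2* (-0.709).

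**Figure D3:**
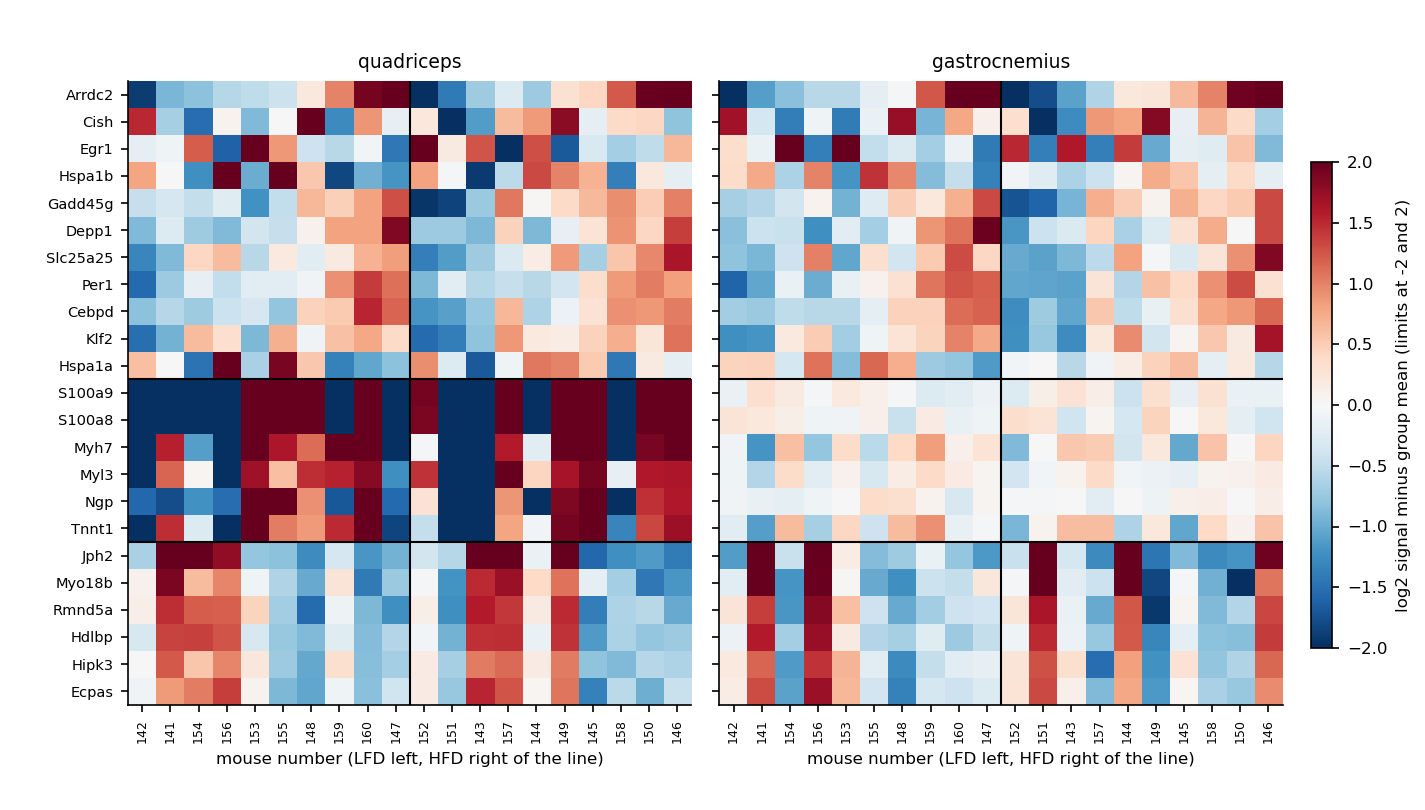
Log2 signal minus group mean in the quadriceps (left) and in the gastrocnemius (right) of each mouse (columns, ordered within each diet by the *Arrdc2* residual), with colors limited at -2 and 2. The upper 11 rows are genes with a large shared SD and repeat their colors in both muscles, the middle 6 rows vary mainly in the quadriceps, and the lower 6 rows vary in both muscles, high in both in LFD mice 141 and 156 and otherwise mostly in different mice.

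Gene groups were described by the number of members called and the median r, beside 1.53% and 0.166 over all tested genes. Over all tested genes the median r was 0.389 in LFD mice and -0.00761 in HFD mice, and 76.3% had a positive r over all mice. The lists were put together with earlier results of these data known, so their counts are descriptions. Immediate early genes had 10 of 16 tested members called and a median r of 0.773, nearly the same in LFD mice (0.747) and HFD mice (0.783). Called were *Rhob* (r 0.919), *Zfp36*, which destabilizes cytokine mRNAs (0.903), *Klf6* (0.903), *Klf2*, *Nr4a1*, *Ier3*, *Egr1*, *Dusp1*, *Klf4* and *Ccn1*. The prototypes of this class did not pass: *Fos* had an r of 0.571 (95% CI 0.157 to 0.814, FDR 0.251) and *Jun* one of 0.345 (95% CI -0.129 to 0.691, FDR 0.618) by the permutation test.

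Genes induced by fasting and glucocorticoids had 10 of 25 members called and a median r of 0.601, with 0.747 in LFD mice and 0.531 in HFD mice. Besides *Cebpd*, *Gadd45g*, *Per1* and *Slc25a25* these were *Cebpb*, *Errfi1*, *Klf15*, *Sgk1*, *Fkbp5* and *Lpin1*. Members without a call included *Tsc22d3*, the leucine zipper protein GILZ (r 0.547), *Pdk4*, the kinase that restrains glucose oxidation (0.299), and *Zbtb16* (0.172), all with an FDR above the threshold. Clock genes had 2 of 19 members called, *Per1* and *Usp2* (r 0.862), and a median r of 0.473. All 19 had a positive r, as did 76.3% of all tested genes. The medians by diet were 0.650 in LFD mice and 0.0942 in HFD mice, beside 0.389 and -0.00761 over all tested genes, which were lower in HFD mice too. *Arntl*, the clock activator, had an r of 0.924 in LFD mice and -0.0367 in HFD mice (0.555 over all mice), *Nr1d1* one of 0.753 and 0.385, and *Dbp*, a clock output, one of 0.732 and 0.559.

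Heat shock proteins and cochaperones had 4 of 20 members called and a median r of 0.394. The 4 were the inducible *Hspa1b*, *Hspa1a* and *Hsph1* (0.788) with *Stip1*, while the constitutive *Hspa8* had an r of 0.0731. Of 18 endothelial genes, 3 were called, the transcription factors *Sox17* (0.839) and *Sox18* (0.751) and the lipase anchor *Gpihbp1* (0.754). The median r was 0.301, and 16 of 18 were positive, beside 76.3% of all tested genes. Uncalled members ranged from *Tie1* (-0.239) to *Egfl7* (0.709), and the general endothelial marker *Pecam1* had an r of 0.00779. *Iigp1* was the 1 interferon gene called of 12 (r 0.727), *Srebf1*, the regulator of lipid synthesis, the 1 of 10 fatty acid synthesis genes (0.695), and *Serpinh1* the 1 of 22 collagen and matrix genes (0.736). The calls of *Iigp1* and *Srebf1* were lost with Spearman's rho (FDR 0.156 and 0.159, permutation test), without mouse 141 (FDR 0.0724 and 0.0559) and without the 2 farthest mice.

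The other groups had 0 called members. Their medians were 0.347 for antigen presentation (9 genes), 0.327 for loci that differ between C57BL/6 stocks (3), 0.259 for adipocyte genes (12), 0.253 for macrophage genes (11), 0.245 for red cell and blood genes (4) and 0.221 for glycolysis (15). They were 0.137 for cell division (4), 0.126 for the proteasome (24), 0.104 for oxidative phosphorylation (26), 0.0903 for B and plasma cells (3) and 0.0844 for the degradation of branched-chain amino acids (21). Fatty acid oxidation (23) had 0.0633, ribosomal proteins (11) 0.0558, tendon genes (10) 0.0546, fast fiber genes (15) 0.0510 and myelin genes (4) 0.0237. The spread behind these medians differed. The median residual SD in the quadriceps was 0.0833 for oxidative phosphorylation genes and 0.0483 for fast fiber genes, against 0.185 over all tested genes and 1.71 for slow fiber genes. No list holds 66 of the 99 shared genes.

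**Figure D4:**
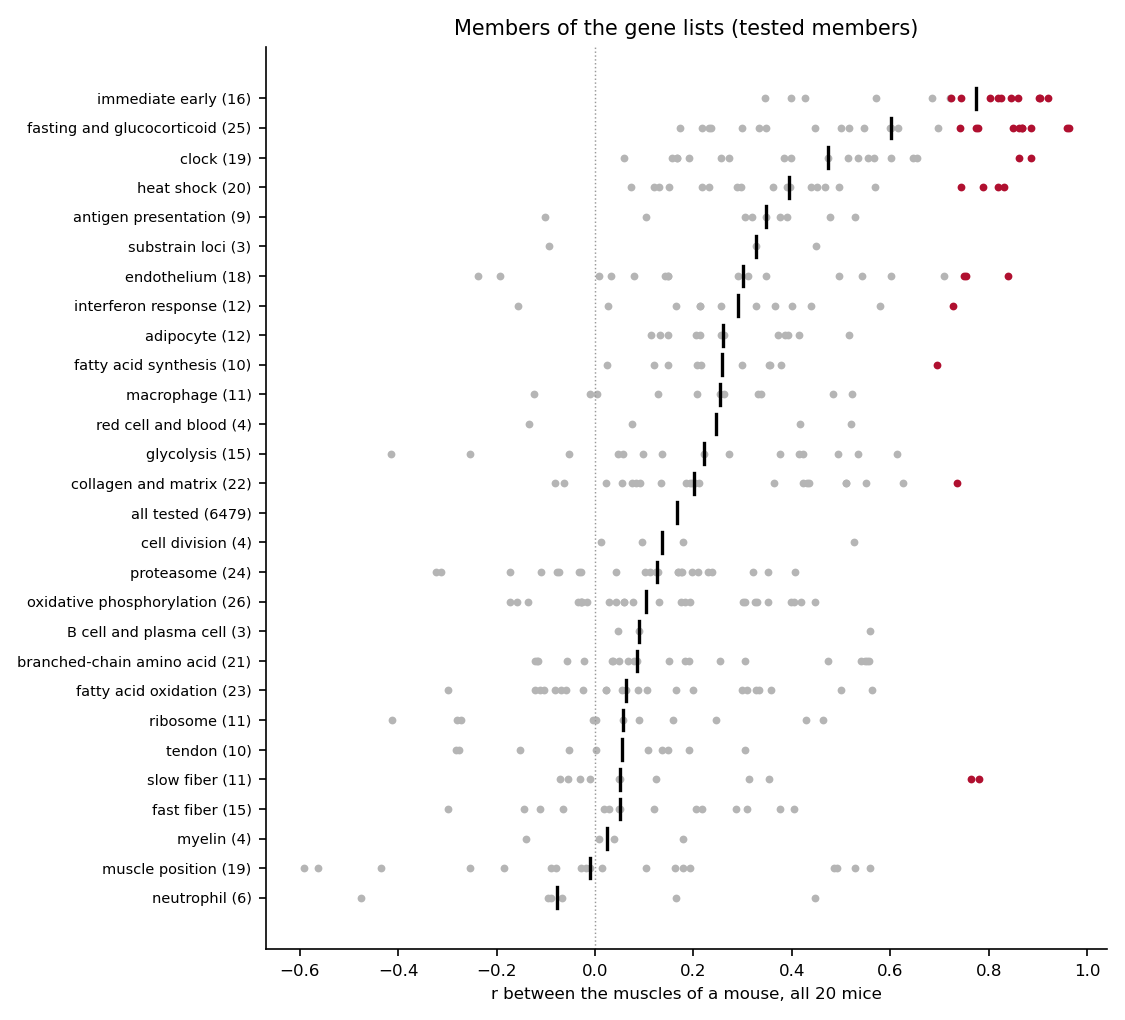
Each point is a tested member of a gene list (y axis, number of tested members in brackets), placed by its r between both muscles over all 20 mice (x axis), red where called and gray where not, with a black bar at the median of the list. Immediate early genes (median 0.77) and genes of fasting and glucocorticoids (0.60) lie farthest to the right, and the row of all tested genes has only its median, 0.17.

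Other transcripts varied more in the quadriceps than in the gastrocnemius, with an r near 0 between both. The 6 genes with the largest residual SD in the quadriceps at an r between -0.2 and 0.2 were *S100a9*, *S100a8* and *Ngp* of neutrophils and *Myh7*, *Myl3* and *Tnnt1* of slow fibers. *S100a9* and *S100a8* encode the pair of proteins that form calprotectin. In 10 quadriceps *S100a9* lay between 5.4 and 8.2 and in the other 10 between 323.5 and 5314.6, with no mouse between, while all 20 gastrocnemius values lay between 5.2 and 8.8. The high quadriceps were those of LFD mice 148, 153, 155 and 160 and of HFD mice 145, 146, 149, 150, 152 and 157, and *S100a8* was high in the same 10, at 342.6 to 4031.3 against 5.1 to 11.9. Because mice fell into separate sets, r was taken within each set: for *S100a9* it was 0.103 in the 10 high mice and -0.0717 in the 10 low ones (unadjusted permutation p 0.774 and 0.839). *Ngp*, a neutrophil granule protein, spanned 5.8 to 1691.5 over the quadriceps samples, against 6.7 to 10.9 over those of the gastrocnemius. Across the 6 tested neutrophil genes the median residual SD was 2.33 in the quadriceps and 0.199 in the gastrocnemius, and the median r was -0.0775. In the gastrocnemius *S100a9*, *S100a8*, *Ngp*, *Camp* and *Lcn2* of these 6 stayed near or below the array medians of 8.8 to 9.4. They passed the signal filter through the quadriceps. Their r, and so this median, cannot show whether a deviation is shared. Macrophage and red cell genes, given above, were uncalled as well. The red cell gene *Alas2* also fell into separate sets in the quadriceps. Its 9 high mice there (47.4 to 73.4) were all among the 10 high for *S100a9*. Its gastrocnemius signal lay between 7.6 and 25.7. Within the 9 mice its r was -0.527, and in the other 11 it was 0.545 (unadjusted permutation p 0.142 and 0.0826).

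*Myh7*, the slow myosin heavy chain, was 3.2, 248.95 and 842.6 in the LFD quadriceps and 4.9, 159.7 and 395.8 in the HFD quadriceps, but 370.0, 951.15 and 1487.7 in the LFD gastrocnemius and 368.1, 815.7 and 1121.3 in the HFD gastrocnemius. Some quadriceps lay at the array background and others overlapped the gastrocnemius, and every gastrocnemius held it. Its r was -0.0307 (95% CI -0.478 to 0.430), an interval that does not exclude a moderate relation in either direction. The residual SD was 2.65 in the quadriceps and 0.614 in the gastrocnemius. *Myl3*, a slow light chain (r 0.123, residual SD 2.5 and 0.261), and *Tnnt1*, slow troponin T (r 0.0510, 2.15 and 0.637), were chosen by the same rule. An r near 0 and a wide quadriceps spread were fixed by that choice, so these slow fiber genes are not separate results. Across 11 slow fiber genes the median r was 0.0510 at a median residual SD of 1.71 in the quadriceps and 0.484 in the gastrocnemius.

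A pair of genes on that list behaved otherwise. *Csrp3*, the muscle LIM protein of the Z-disc, had an r of 0.780 (FDR 0.0159), and *Ankrd2*, a stretch-responsive ankyrin protein, one of 0.764 (FDR 0.00209), both by the permutation test. Position genes, which keep the embryonic address of a muscle, had 0 of 19 members called and a median r of -0.0106. Their signs were mixed, with 9 of 19 positive, beside 76.3% of all tested genes, and a highest r of 0.559. *Tbx1* had the lowest r of them, -0.591, and *Hoxd9* had -0.563, with -0.795 in LFD mice and 0.4657 in HFD mice. Both missed the threshold, with an FDR of 0.430 and 0.513 by the permutation test. The paper reports *Hoxd10* as detectable in the gastrocnemius but not in the quadriceps, and *Hoxc6* the other way round. For a position gene near background in either muscle, r cannot show whether a deviation is shared. The median of this list is limited in the same way, and how many members this concerns was not examined.

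The 6 genes chosen the same way in the gastrocnemius were *Jph2*, *Myo18b*, *Rmnd5a*, *Hdlbp*, *Hipk3* and *Ecpas*, and they varied widely in the quadriceps too, with residual SDs of 0.807 to 1.47 there and of 0.914 to 1.51 in the gastrocnemius. *Jph2*, the junctophilin that ties the cell surface to the calcium store, had residual SDs of 1.51 (gastrocnemius) and 1.47 (quadriceps). Its signal lay between 680.4 and 883.3 in the quadriceps of mice 141, 143, 149, 154, 156 and 157 and between 59.9 and 162.5 in the other 14. In the gastrocnemius it lay between 498.9 and 758.1 in mice 141, 144, 146, 151 and 156 and between 47.6 and 128.5 in the other 15. Only LFD mice 141 and 156 were high in both. For the gap in the quadriceps r was -0.596 in the 6 high mice and 0.378 in the 14 low ones (unadjusted permutation p 0.229 and 0.181), and for the gap in the gastrocnemius it was 0.00236 in the 15 low mice (p 0.993). *Hdlbp*, an RNA-binding protein, was high in the same 6 quadriceps (651.7 to 709.8 against 109.6 to 230.4) and in the same 5 gastrocnemius (577.1 to 691 against 99.7 to 230.5). Its r was -0.804 in the 6 high and 0.150 in the 14 low quadriceps (unadjusted permutation p 0.0542 and 0.604). *Myo18b*, *Rmnd5a*, *Hipk3* and *Ecpas* had an r of 0.196, -0.0423, 0.0549 and 0.143. In LFD mice all 6 passed the moderated F test of shared deviation (limma, FDR 0.0172 for *Jph2* to 0.0419 for *Rmnd5a*) but 0 of them the permutation test of r, and in HFD mice their F test had an FDR of 0.990. Of the 6479 tested genes 737 passed this F test in LFD mice. The 6 were chosen from the same residuals and were high in largely the same mice, so they are not 6 separate results.

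These 6 genes moved with an array-wide pattern. The first principal component of the residuals, taken in each muscle apart, carried 30.1% of the variance in the quadriceps and 34.1% in the gastrocnemius. Its scores in both muscles of a mouse had an r of 0.312 over all mice (permutation p 0.190), 0.664 in LFD mice (p 0.0253) and -0.0178 in HFD mice (p 0.962). The gastrocnemius scores fell into separate sets of mice, so these r are not used as support. On LFD, mice 141 and 156 scored 0.394 and 0.435 there, and the other LFD mice between -0.167 and -0.0237. The LFD r therefore cannot show a relation among those other mice. The gastrocnemius scores were highest in mice 156, 141, 144, 151 and 146, the mice with high *Jph2* there. In the quadriceps mouse 149, high in *Jph2*, scored 0.0882, below mice 144 (0.146) and 142 (0.117), where *Jph2* was low. The sign of the component was set by *Jph2*, and genes of wide spread weigh most in it. The part of RNA quality or hybridization in this component was not tested. With the component removed, the r of the 11 leading shared genes lay between 0.727 (*Per1*) and 0.926 (*Cish*), and that of *Arrdc2* was 0.827. Removing it left 96 genes called over all mice, of which 66 were among the 99.

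In LFD mice 21 genes (0.324%) were called positive and 0 (0%) negative, with a median r of 0.389. In HFD mice 8 genes (0.123%) were called positive and 0 (0%) negative, with a median r of -0.00761. At an unadjusted p under 0.05 the permutation test gave 1316 positive and 29 negative genes in LFD mice and 261 and 106 in HFD mice. The 8 HFD genes, *Arrdc2*, *Cebpd*, *Chac1*, *Cish*, *Smox*, *Tmem204* and *Zfp36* among them, all belonged to the 99, and 12 of the 21 LFD genes were. *Arrdc2*, *Cish* and *Zfp36* were called in each diet. These counts changed with single mice, and fewer mice also leave fewer reassignments for the permutation test. Leaving out 1 mouse gave between 0 (without mouse 159) and 51 (without mouse 154) LFD calls and between 0 (without 146, 149 or 152) and 6 HFD calls, and with the first component removed both counts were 0, as was the LFD count without mice 141 and 156.

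Of all tested genes 76.0% had a higher r in LFD mice than in HFD mice. For no single gene did the difference pass: 0 genes (0%) were called by the permutation test of the difference, with a smallest FDR of 0.324, and 782 had an unadjusted p under 0.05. The genes with the smallest p were *Vwa5a* (r 0.902 in LFD and -0.615 in HFD mice), *Sin3b*, *Zfp770*, *Prps1* and *Prkaa2*, a catalytic subunit of AMP-activated kinase (0.803 and -0.479), on the LFD side. On the HFD side they were *Pigu* (-0.343 and 0.897), *Anxa5*, annexin A5 (-0.506 and 0.831), *Nsmce4a*, *Irak2* and *Mrpl51*. No trend of the mouse means with the mouse number was called either (0 genes, 0%; 527 at an unadjusted p under 0.05, smallest FDR 0.216, permutation test).

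For whole profiles too the mean r was larger in LFD mice. For each mouse the residuals of all tested genes in the quadriceps were correlated with those in the gastrocnemius of the same mouse and of other mice of its diet, across genes, which are not independent replicates. In LFD mice the mean r was 0.342 ± 0.202 (SD, n = 10) within a mouse and -0.0346 between mice, and the difference, 0.376, had a permutation p of 1e-05, the smallest that 100000 draws can give. In HFD mice it was 0.0467 ± 0.242 (SD, n = 10) within a mouse and -0.00315 between mice, a difference of 0.0498 (permutation p 0.633). The own gastrocnemius ranked first for 6 of 10 LFD mice and 2 of 10 HFD mice. Values per mouse ran from -0.0705 (mouse 154) to 0.631 (mouse 156) on LFD and from -0.212 (mouse 157) to 0.434 (mouse 152) on HFD, so the diets overlapped. The LFD mean exceeded the HFD mean by 0.295 (exact permutation p 0.0106 over 184756 assignments, two-sided, a test chosen after the values were seen).

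This difference moved with the first component. With that component removed the LFD difference between own and other mice was 0.248 (permutation p 1e-05) and the HFD difference 0.173 (p 0.00106), and the LFD mean exceeded the HFD mean by 0.0673 (permutation p 0.335). Without mice 141 and 156, high on the component in both muscles, it did so by 0.188 (permutation p 0.0681). Among the lists, the clock median with the component removed was 0.369 in HFD mice, where it had been 0.0942, and 0.609 in LFD mice, while that of immediate early genes was 0.665 in LFD mice and 0.7004 in HFD mice. Over all tested genes the median with the component removed was 0.219 in LFD mice and 0.134 in HFD mice.

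**Figure D5:**
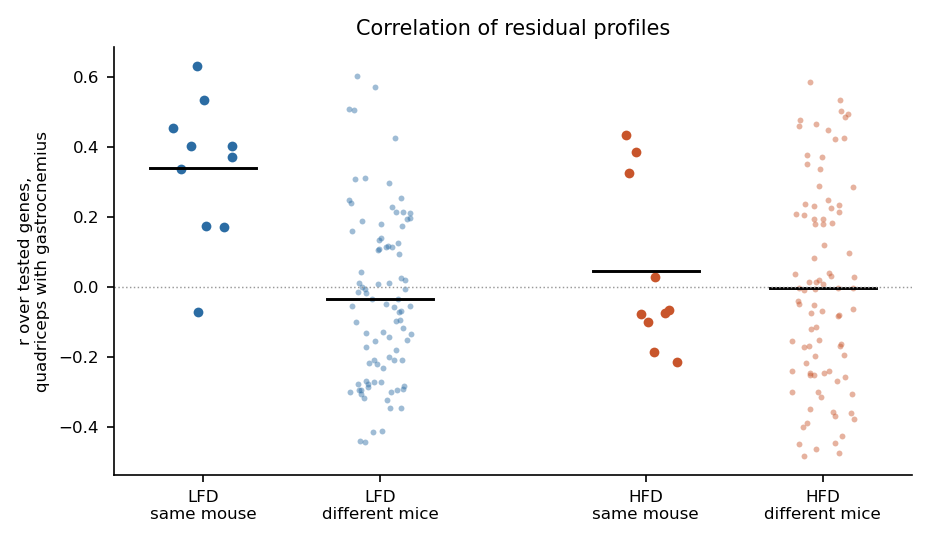
Pearson r across tested genes between a quadriceps and a gastrocnemius residual profile (y axis), for both muscles of the same mouse (large points, 10 per diet) and for muscles of different mice of a diet (small points), with black bars at the means. LFD mice have a mean of 0.342 within a mouse and HFD mice one of 0.0467, beside -0.0346 and -0.00315 between mice.

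The shared genes were then looked up in the comparisons of muscles and diets, which use group means and not residuals. With limma, with thresholds of 1.3 in fold change and 0.05 in FDR, 163 genes (2.52%) differed between the muscles in LFD mice and 224 (3.46%) in HFD mice. Of the 99 shared genes 4 and 10 did. In both diets *Csrp3* was higher in the gastrocnemius, by 1.98 on the log2 scale (FDR 0.00795) in LFD mice and 2.21 (FDR 0.000241) in HFD mice, as was *Ppp1r27*, by 0.42 and 0.58. *Dusp26* and *Hsph1* were lower there, with log2 differences of -0.46 and -0.48 in LFD mice and of -0.43 and -0.45 in HFD mice. Called in HFD mice alone were *Ankrd2*, *Casp12*, *Odc1*, *Rcan1*, *Tmem100* and *Tnfrsf12a*. With the mouse as a block, all of these but *Rcan1* (limma, FDR 0.0806) were called in LFD mice as well, and no test of the difference between diets was run. Of the 11 leading genes none was called between muscles in either diet by this fit, which leaves out the pairing. With the mouse as a block *Cish* was called in HFD mice, with a log2 difference of -0.47 (limma, FDR 0.00351) and a lower gastrocnemius than quadriceps signal in 10 of 10 mice, while in LFD mice its difference of -0.25 had an FDR of 0.0774.

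The diet itself was called for 4 genes (0.0617%) in the quadriceps and 14 (0.216%) in the gastrocnemius. Of the 99, 0 and 1 were called, the 1 being *Ppp1r27*. Leaving out 1 mouse gave 1 (without mouse 145) to 10 (without 144) genes in the quadriceps and 9 (without 154) to 19 (without 148) in the gastrocnemius. With the mouse as a block in the limma fit, which removes what both muscles share, 219 genes (3.38%) differed between muscles in LFD mice and 233 (3.6%) in HFD mice, with 12 and 11 of the 99 among them. The standard error of the muscle difference fell with the block to 0.439 and 0.535 of its unblocked size at the median of the 99 genes in LFD and HFD mice, which follows from how they were chosen, and to 0.806 in LFD mice but 1.01 in HFD mice over all tested genes. The correlation of both muscles of a mouse that duplicateCorrelation estimated over all tested genes was 0.365 in LFD mice and -0.00210 in HFD mice.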

How the data were processed

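Total RNA of quadriceps and gastrocnemius of 20 mice was hybridized to 40 Affymetrix Mouse Genome 430 2.0 arrays. Per the methods, the authors assigned probes to Entrez genes (1 probe set each) and summarized them with GC-RMA after quantile normalization. The table they deposited holds linear signal intensity. The GC-RMA version was not given in the sources used here. Of 16539 probe sets, 64 controls were left out. Of the other 16475, 16229 were named from RefSeq (GRCm38.p6), 28 from the platform annotation, and 218 had no symbol. Probe sets with a mean signal over 20 (6479, 39.3%) were tested, so genes of low signal are not covered. The number of arrays limits the precision. The genome build behind the deposited table was not given in the sources used here, and the coordinates printed are those of RefSeq.

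Groups and mouse numbers came from the labels. Residuals on the log2 scale were correlated between muscles in Python 3.11.15 with numpy 2.4.6 and numba 0.67.0 (scipy 1.17.1 for ranks and pandas 2.3.3 for tables), with two-sided permutation tests of 100000 draws and Benjamini-Hochberg adjustment over the 6479 genes. Confidence intervals of r (95%) used Fisher's transformation. Where the largest gap between neighboring residuals of a gene was over 0.35 of their range, with at least 2 mice on each side, r was given within each set of at least 6 mice. Muscles and diets were compared with limma 3.58.1 in R 4.3.3. The pairing comes from the mouse number, as same-numbered arrays are muscles of 1 animal. The permutation tests of single genes and the limma fits were tested on simulated data.

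Genes were named as the 12 called with the largest shared SD, the 5 called with the highest r, the 6 per muscle with the largest residual SD at an r between -0.2 and 0.2, up to 3 per list with the smallest p, and up to 5 per direction with the smallest p for the diet difference. Further called genes and list members were named after their values were seen. 1 gene that this rule picks is not reported here. The rule of the pairs, the gene lists and the tests were chosen with earlier results of these data known. Alternatives changed the correlation measure, the signal filter, the offset before log2, the normalization, the first component, the FDR, the test and the mice.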

Additional observations from a re-analysis of the deposited data

Results flagged for a closer look

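The mean correlation of the quadriceps profile with the gastrocnemius profile of the same mouse differed between diets, with 0.342 in LFD mice and 0.0467 in HFD mice, a difference of 0.295 (exact permutation p 0.0106 over 184756 assignments of 20 mice). It was 0.0673 (permutation p 0.335) with the first principal component of the residuals of each muscle removed and 0.188 (permutation p 0.0681) without mice 141 and 156, which scored high on that component in both muscles. Both conditions were looked at after the difference was known. What the component stands for was not tested. In 98 groups of 10 mice (24 genes by muscle and diet, and the profile values by diet) the gap of the highest or lowest mouse to its neighbor passed Dixon's 95% limit in 0 groups, where chance would flag about 1 in 20.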

How the results depend on the processing

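Over all mice, the 99 positive calls became 49 at an FDR under 0.01 and 169 with the moderated F test of the mouse as a replicate block, which held 95 of the 99. They were between 73 (without mouse 160) and 117 (without mouse 145) when 1 mouse was left out, 83 with Spearman's rho (67 of the 99 among them), 96 with the first component removed (66 of the 99) and 67 without mice 141 and 156 (62 of the 99), an alternative added after seeing the data. Negative calls over all mice were 1 with no filter on signal and 0 to 1 (without mouse 152) when 1 mouse was left out.

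The 21 LFD calls became 0 at an FDR under 0.01, 113 at an FDR under 0.1, 11 with no filter, 0 with the first component removed, 0 without mice 141 and 156, 737 with the F test of the replicate block, and 0 to 51 when 1 mouse was left out. The 8 HFD calls became 0 at an FDR under 0.01, 14 at an FDR under 0.1, 4 with Spearman's rho, 0 with no filter, 5 at a mean signal over 100, 13 after a further quantile normalization (with 1 negative call), 0 with the first component removed, 34 with the F test of the replicate block, and 0 to 6 when 1 mouse was left out. The smallest p that 100000 draws can give, 1e-05, stood for an FDR of 0.0108 in LFD mice. The number of draws thus limits calls at an FDR under 0.01, and leaving out mice leaves fewer reassignments. The cause of the changes in these counts was not tested. Calls of the diet difference and of the trend with the mouse number were 0 under every alternative run.

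The profile difference in LFD mice kept its direction and its side of the threshold under all alternatives run (0.320 to 0.433 when 1 mouse was left out). In HFD mice it was 0.173 with the first component removed, past the threshold there, and -0.00283 to 0.0893 when 1 mouse was left out. The median r of LFD mice, 0.389, was 0.204 with no filter, 0.219 with the first component removed and 0.245 without mice 141 and 156, and that of HFD mice was 0.134 with the component removed.

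With the mouse as a fixed replicate block, the muscle difference was called for 219 genes in LFD mice (162 of the 163 without the block) and 233 in HFD mice (213 of the 224). With a random block it was 225 and 223. When 1 mouse was left out it was called for 127 to 216 genes in LFD mice and 191 to 236 in HFD mice, and the diet for 1 to 10 in the quadriceps and 9 to 19 in the gastrocnemius. Among values of named genes under alternatives, 421 kept direction and side of the threshold, 10 no longer passed it (*Csrp3*, *Egr1*, *Hspa1a*, *Iigp1* and *Srebf1* without the 2 farthest mice, *Egr1*, *Iigp1* and *Srebf1* with Spearman's rho, *Iigp1* and *Srebf1* without mouse 141) and *Hoxa5* passed it without the 2 farthest mice. None was reversed. Genes below a mean signal of 20 and those near the array medians have fold ranges set by background.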
